A study of Mus musculus and Rattus norvegicus with 79 samples.

Results

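Gene expression in the liver was compared between the last unfed hour before the night and the first hour of food, in mice whose hepatocytes keep Nr3c1, the gene of the glucocorticoid receptor (GR). The samples were chosen by their labels: 3 libraries of GFP livers fed at ZT13 and 3 libraries of GFP livers unfed at ZT12, which are 6 of the 79 samples of the series and 6 of the 36 libraries of one count table. ZT is Zeitgeber time, in hours since lights on, under a cycle of 12 h of light and 12 h of dark, and all mice were trained to eat at night only. Both groups are Nr3c1fl/fl mice, which carry a floxed Nr3c1 gene, and both received AAV-tbg-GFP 10 days before the livers were taken. This is an adeno-associated virus that makes green fluorescent protein behind tbg, the promoter of a hepatocyte protein, so that other liver cells are not targeted. The mice that stand beside them carry the same floxed gene and received AAV-tbg-CRE, whose recombinase removes the floxed part of Nr3c1 in hepatocytes. Age and sex of the mice are not used here. No label says whether the libraries of a group come from separate animals, so p-values measure spread between libraries. For the gene tests of this comparison that spread was estimated over all 36 libraries of the table, not over these 6 alone. The 2 groups differ in food and in 1 h of clock time together, and no unfed GFP liver of ZT13 was analysed, so food and hour cannot be told apart in this comparison.

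At dusk, mice that eat at night take their first large meal, blood insulin rises, and the liver turns from releasing glucose to storing it. Insulin acts in hepatocytes through the insulin receptor substrates Irs1 and Irs2 and through FOXO transcription factors, which it removes from the nucleus. GR is a transcription factor that binds glucocorticoid hormone, whose level in mice peaks around dusk, and its liver targets include Fkbp5, Tsc22d3 and genes of glucose production. Heat shock chaperones and the chaperones of the endoplasmic reticulum are 2 families that cells make in larger amounts when more protein has to be folded.

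The libraries held 34.6 to 77.1 M counts. Replicates 1 and 2 of ZT12 held the fewest, 47.3 and 34.6 M. Replicate 3 of ZT12 held 74.1 M and the ZT13 libraries 63.8 to 77.1 M. The row NR_046233, which the gene table used here does not name, took 22.9% of the counts in replicate 1 of ZT12, 24.5% in replicate 2 and 4.52% in replicate 3. In the fed ZT13 livers it took 4.55%, 2.47% and 2.3%. The group means were 17.3% ± 11.1 and 3.10% ± 1.25 (SD, n = 3; exact permutation test, two-sided, p = 0.2, where 3 against 3 cannot go below 0.1). Replicates 1 and 2 of ZT12 therefore stand apart from replicate 3, and 4 other libraries of the table, all of ZT10, also lay above 20%. The row was left out of library sizes and tests. Nr3c1 was at 210, 198 and 233 CPM (counts of each gene scaled to a common library size, with TMM factors) at ZT12 and at 224, 216 and 256 CPM at ZT13, a log2 fold change of 0.12 ± 0.14 (SE; adjusted p = 0.734). The groups overlap. In CRE livers Nr3c1 was at 102 to 126 CPM at ZT12 and 126 to 201 CPM at ZT13. Alb, the albumin of hepatocytes, was at 40100, 50000 and 40300 CPM and then at 44100, 37200 and 43600 CPM.

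**Figure D1:**
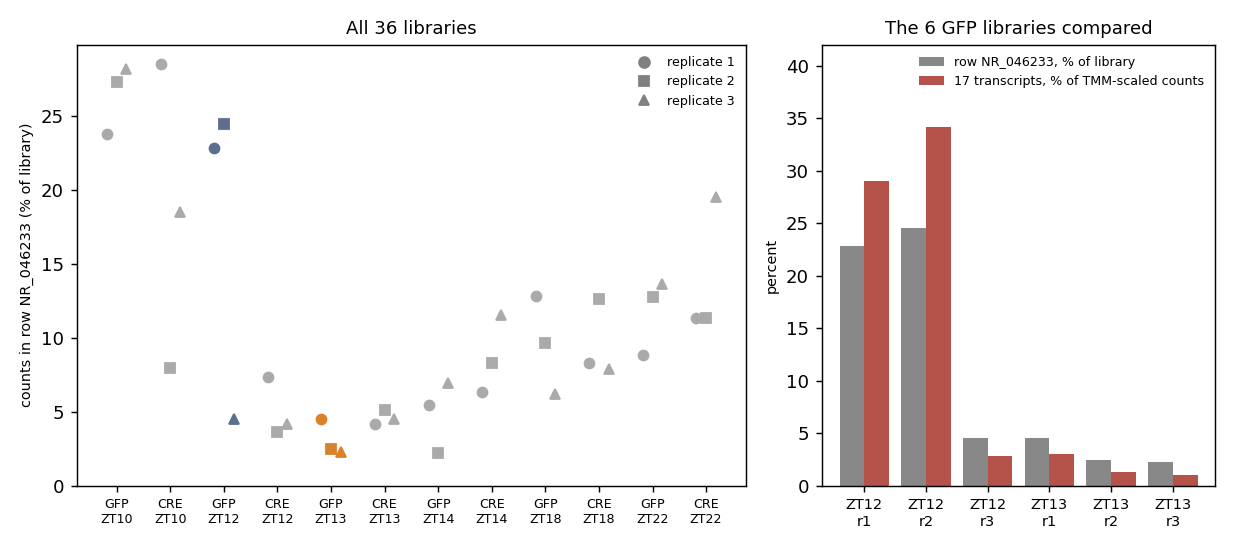
Left, the percentage of each library's counts in row NR_046233 in the 36 libraries of the table, by group and replicate (GFP ZT12 blue, GFP ZT13 orange). Right, the same percentage (grey) beside the summed percentage of TMM-scaled counts of 17 transcripts (red) in the 6 libraries compared. Counts shared by the overlapping genes Cmss1 and Filip1l enter the red sum under both genes. Replicates 1 and 2 of ZT12, at 22.9% and 24.5%, stand above the other 4 libraries on both measures.

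Of 15712 genes tested, 300 rose (1.91%) and 164 fell (1.04%) from ZT12 unfed to ZT13 fed, 464 in all (2.95%; Benjamini-Hochberg adjusted p under 0.05, edgeR quasi-likelihood test). Unadjusted p was under 0.05 for 2655 genes. The median log2 fold change over all genes was 0.01. The 3 fed libraries lay above the 3 unfed libraries for 1782 genes (11.3%) and below them for 1479 (9.41%). These calls use the spread of all 12 groups of the table: with only the 6 libraries in the fit, 0 genes passed edgeR, and 2104 had an unadjusted p under 0.05. DESeq2 called 749 genes over all groups. When the log2 share of that row entered the fit as a covariate 118 genes passed, with replicate 3 alone on the unfed side 21, and without the 6 libraries above 20% in that row 27. Of the 464 genes, 455 kept their sign with the covariate and 461 in each of the other 2 fits. Leaving out 1 library in turn gave 149 genes without replicate 3 of ZT12, 154 without replicate 1, 279 without replicate 2, and 477, 219 and 234 without replicates 1, 2 and 3 of ZT13.

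The clearest group was the heat shock chaperones, which keep proteins folded in the cytosol: 10 of 19 members tested rose and none fell (15 had an unadjusted p under 0.05, all higher), and 15 of 19 had all fed libraries above all unfed ones. Their median log2 fold change was 0.65. In CRE livers 14 of the same 19 rose and none fell, with a median of 0.70. Over all genes tested 1.91% rose in GFP livers and 5.77% in CRE livers. Bag3, which links the chaperone Hsp70 to protein disposal, was at 43.3, 38.2 and 39.3 CPM at ZT12 and at 76.4, 94.5 and 103 CPM at ZT13. Every fed library was above every unfed one, and the log2 fold change was 1.18 ± 0.16 (adjusted p = 0.00023). Hsp90aa1, the inducible cytosolic Hsp90, was at 39.5, 32.8 and 33.9 CPM and then at 54.2, 79.7 and 98.8 CPM (1.13 ± 0.20, adjusted p = 0.00184). Hsph1, a partner that reloads Hsp70, was at 46.9, 31.0 and 29.7 CPM and then at 79.0, 92.0 and 122 CPM (1.45 ± 0.28, adjusted p = 0.00458). The groups do not overlap for either gene. Hspa1b, an inducible Hsp70, was at 3.05, 2.43 and 3.60 CPM unfed and at 6.19, 18 and 31.2 CPM fed, with a log2 fold change of 2.56 ± 0.47 (adjusted p = 0.00296). The fed libraries thus span a wide range while the unfed ones lie close together. Hspa1a, its near-identical neighbour on chromosome 17, was at most at 0.485 CPM unfed and reached 3.98 CPM in fed replicate 3, and reads of the pair cannot be assigned with certainty. DESeq2 gave Hspa1a no adjusted p (2.76, unadjusted p = 3.82e-05). Hspa4l, another Hsp70 partner, was at 16.3, 14.3 and 14.3 CPM and then at 21.2, 31.1 and 49.2 CPM (1.18 ± 0.19, adjusted p = 0.00123). The co-chaperones Dnaja1, Stip1, Chordc1 and Ahsa1 rose by 0.41 to 0.75. Among the 9 members not called, Hsp90ab1, the constitutive Hsp90, was at 430 to 437 CPM and then at 469 to 535 CPM (0.23 ± 0.11, adjusted p = 0.261), and the mitochondrial chaperone Hspd1 was at 0.07 ± 0.10 (adjusted p = 0.791). In the covariate fit for NR_046233, 5 heat shock members rose, with replicate 3 alone on the unfed side 1 and without the 6 high libraries 2, while the list's median was 0.72 to 0.79. Hsp90aa1, Hspa1a and Hspa1b were not called in the covariate fit. Leaving out 1 library in turn left 7 to 10 members called. Hspa1a lost its call without replicate 1 or 3 of ZT12 or replicate 3 of ZT13 (adjusted p up to 0.151), Stip1 without replicate 3 of either time (0.0571) and Chordc1 without replicate 2 of ZT12 (0.0513). Ahsa1 kept its call only without replicate 3 of ZT13 (up to 0.137). Bag3 stayed called in the 3 fits on NR_046233 and without any 1 library, at an adjusted p of 0.00268 or less in the latter.

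**Figure D2:**
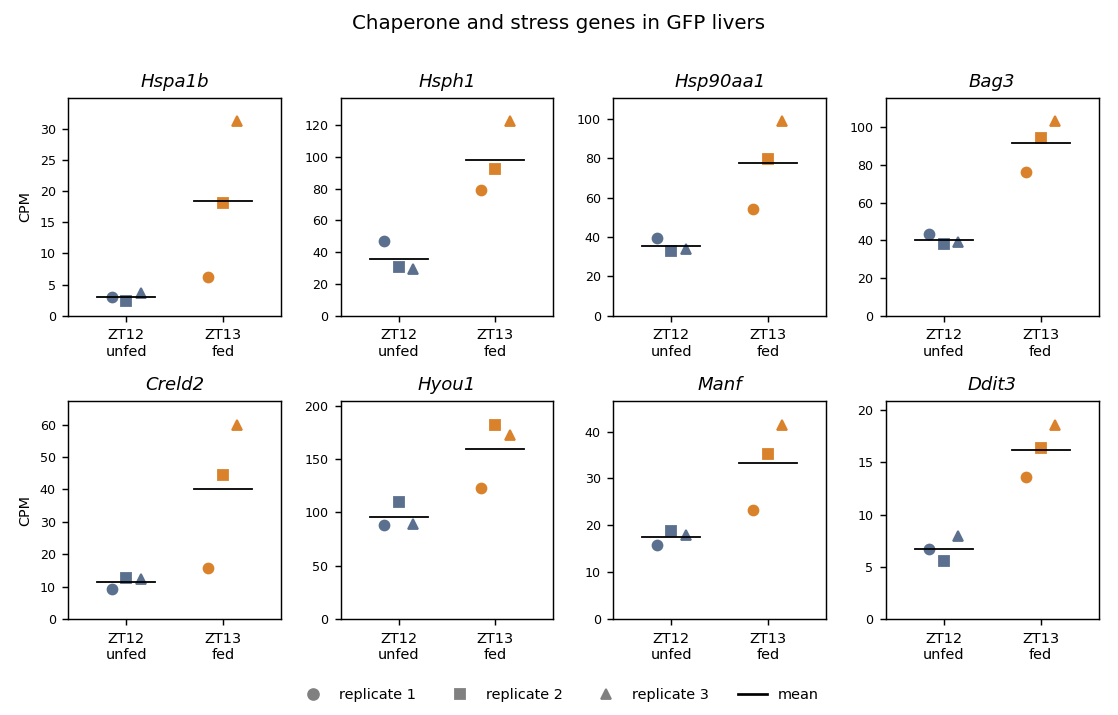
CPM in each GFP library at ZT12 unfed (blue) and ZT13 fed (orange) for 4 heat shock genes (top) and 4 genes of the endoplasmic reticulum and stress responses (bottom); symbols mark the replicate and lines the mean, and each axis starts at 0. The fed libraries lie above the unfed ones in all 8 panels, with fed replicate 1 the lowest of the fed.

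Heat shock genes are known to be switched on through heat shock elements, repeats of the unit GAA in alternating orientation. The 250 bases before the start sites of 3 genes that rose and hold a pair of facing units, and of Bag3, which had the smallest p of the list and holds none, are shown with the pairs in capitals (RefSeq promoters, GRCm38.p6, 5′ to 3′ on the gene's strand).
Hspa1b, chr17:34959239-34959488, minus strand: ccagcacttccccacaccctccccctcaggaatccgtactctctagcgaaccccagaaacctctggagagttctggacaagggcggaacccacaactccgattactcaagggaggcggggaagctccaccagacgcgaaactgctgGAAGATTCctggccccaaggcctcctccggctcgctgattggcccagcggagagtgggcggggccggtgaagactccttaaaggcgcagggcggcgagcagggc
Hsph1, chr5:149636337-149636586, minus strand: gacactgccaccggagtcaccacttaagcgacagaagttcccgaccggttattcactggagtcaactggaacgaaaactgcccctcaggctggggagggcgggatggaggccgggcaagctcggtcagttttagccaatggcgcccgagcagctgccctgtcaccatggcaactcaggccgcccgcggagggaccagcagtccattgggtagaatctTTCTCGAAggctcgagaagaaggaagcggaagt
Dnaja1, chr4:40722218-40722467, plus strand: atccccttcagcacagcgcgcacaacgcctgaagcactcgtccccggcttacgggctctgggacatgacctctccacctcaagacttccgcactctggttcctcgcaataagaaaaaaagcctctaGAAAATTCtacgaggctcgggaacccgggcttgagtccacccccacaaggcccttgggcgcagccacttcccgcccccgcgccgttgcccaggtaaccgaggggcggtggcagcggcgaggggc
Bag3, chr7:128523333-128523582, plus strand: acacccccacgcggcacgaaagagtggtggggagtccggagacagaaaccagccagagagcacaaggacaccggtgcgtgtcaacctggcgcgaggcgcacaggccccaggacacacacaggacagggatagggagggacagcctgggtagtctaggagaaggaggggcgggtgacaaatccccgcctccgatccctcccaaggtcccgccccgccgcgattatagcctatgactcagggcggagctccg
The pair begins at position -104 in Hspa1b, -33 in Hsph1 and -124 in Dnaja1, counted from the start site of the window shown. Dnaja1 has 3 windows, and only the 1 shown holds a pair. Hsph1 has 2 windows, and in the other its pair begins at -54. A gene was counted as holding a pair if any of its windows did. The motifs searched were GAANNTTC and TTCNNGAA, which read the same on both strands and may overlap each other. A pair was found in 4 of the 9 heat shock genes that rose and had a window (Hspa1a is the fourth), in 4 of the 7 that were not called (Hspb1, Hspd1, Hspe1 and Fkbp4), in 34 of 240 genes that rose (14.2%) and in 1587 of 12375 genes tested with a window (12.8%). The windows of Hspa1a and Hspa1b are identical at 247 of 250 bases. This motif and these 4 promoters were chosen after the expression values were seen. No gene named by rule and called had a window that overlaps a peak of the authors' replicate-concordant GR list.

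Genes of the unfolded protein response, which enlarge the folding capacity of the endoplasmic reticulum, also moved upward: 5 of 22 rose, none fell (10 had an unadjusted p under 0.05, all higher), and 21 of 22 had a positive log2 fold change (median 0.30). Creld2, a secreted stress protein of this compartment, was at 9.40, 12.5 and 12.4 CPM at ZT12 and at 15.7, 44.5 and 60.0 CPM at ZT13. The groups do not overlap (1.81 ± 0.35, adjusted p = 0.00457). Hyou1, an Hsp70-type chaperone of the reticulum, was at 88.4, 110 and 88.8 CPM and then at 123, 183 and 173 CPM (0.74 ± 0.17, adjusted p = 0.0182). Manf, a factor secreted under reticulum stress, was at 15.9, 18.8 and 18 CPM and then at 23.2, 35.3 and 41.5 CPM (0.92 ± 0.23, adjusted p = 0.0238). Dnajb11 rose by 0.59 and Syvn1, a ubiquitin ligase of reticulum-associated degradation, by 0.70. Hspa5, the main chaperone of the reticulum, was at 226 to 315 CPM and then at 290 to 442 CPM, with overlapping groups (0.52 ± 0.20, adjusted p = 0.177). Xbp1, a transcription factor of the response, was at -0.07 ± 0.20 (adjusted p = 0.905). Ddit3, a stress transcription factor downstream of Atf4, was at 6.74, 5.53 and 7.97 CPM and then at 13.7, 16.4 and 18.6 CPM (1.24 ± 0.22, adjusted p = 0.0022), the only one of 16 ATF4 response genes called. In CRE livers 16 of the 22 unfolded protein response genes rose, where 5.77% of all genes tested rose, against 1.91% in GFP livers. The edgeR test of the difference between the GFP and CRE changes called 0 genes. The GFP count fell to 1 without replicate 1 or 3 of ZT12 or without replicate 2 or 3 of ZT13, was 4 without replicate 2 of ZT12 and 7 without replicate 1 of ZT13, and was 0 by edgeR in the 3 fits that address NR_046233. Creld2 stayed called without any 1 library, while Hyou1, Manf and Dnajb11 lost their calls in those 4 fits (adjusted p up to 0.084, 0.11 and 0.133) and Syvn1 in all but that without replicate 1 of ZT13 (up to 0.174).

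Few genes that answer insulin passed. Angptl8, a hepatic hormone-like protein that limits lipoprotein lipase and is induced by feeding, was at 14.2, 5.63 and 7.72 CPM at ZT12 and at 27.7, 29.8 and 97.8 CPM at ZT13. The groups do not overlap, and fed replicate 3 was more than 3 times the other fed libraries (2.49 ± 0.56, adjusted p = 0.0131). Angptl8 lies within the interval of Dock6, which also rose (1.23 ± 0.30, adjusted p = 0.0217), and without stated strand their reads cannot be told apart with certainty. Irs2, the insulin receptor substrate that insulin represses, was at 42.9, 38.0 and 50.8 CPM and then at 26.4, 21.9 and 10.9 CPM (-1.16 ± 0.31, adjusted p = 0.0348), without overlap. Ppp1r3b, which brings a phosphatase to glycogen, was at 133, 264 and 131 CPM and then at 258, 510 and 343 CPM. Its groups overlap (1.08 ± 0.30, adjusted p = 0.0448). Of 15 insulin signalling genes, Irs1 rose by 0.66, the kinase regulatory subunit Pik3r1 by 0.49 and the kinase Gsk3b by 0.50, and only Irs2 fell. Of 20 genes of glycolysis and glycogen 2 rose, Ppp1r3b among them. Of 14 genes that insulin is known to repress, edgeR called Irs2 alone as lower, and DESeq2 called Txnip as well. Unadjusted p was under 0.05 for 4, of which 3 were lower. With the share of NR_046233 as covariate 1 of the 14 fell, and it was not Irs2. Angptl8 stayed called in that covariate fit, while Dock6, Irs2, Irs1, Ppp1r3b, Pik3r1 and Gsk3b did not. Each of these calls depended on single libraries. Angptl8 lost its call without replicate 2 or 3 of ZT12 or replicate 3 of ZT13 (adjusted p up to 0.109), Dock6 without any 1 library of ZT12 or replicate 3 of ZT13 (up to 0.158), and Ppp1r3b without replicate 1 or 3 of ZT12 or replicate 2 or 3 of ZT13 (up to 0.213). Irs2 and Irs1 lost theirs in 5 of the 6 fits, all but that without replicate 1 of ZT13 (up to 0.166 and 0.151), Pik3r1 without replicate 1 or 2 of ZT12 or replicate 1 or 3 of ZT13 (up to 0.155), and Gsk3b without replicate 2 of ZT13 (0.0618).

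**Figure D3:**
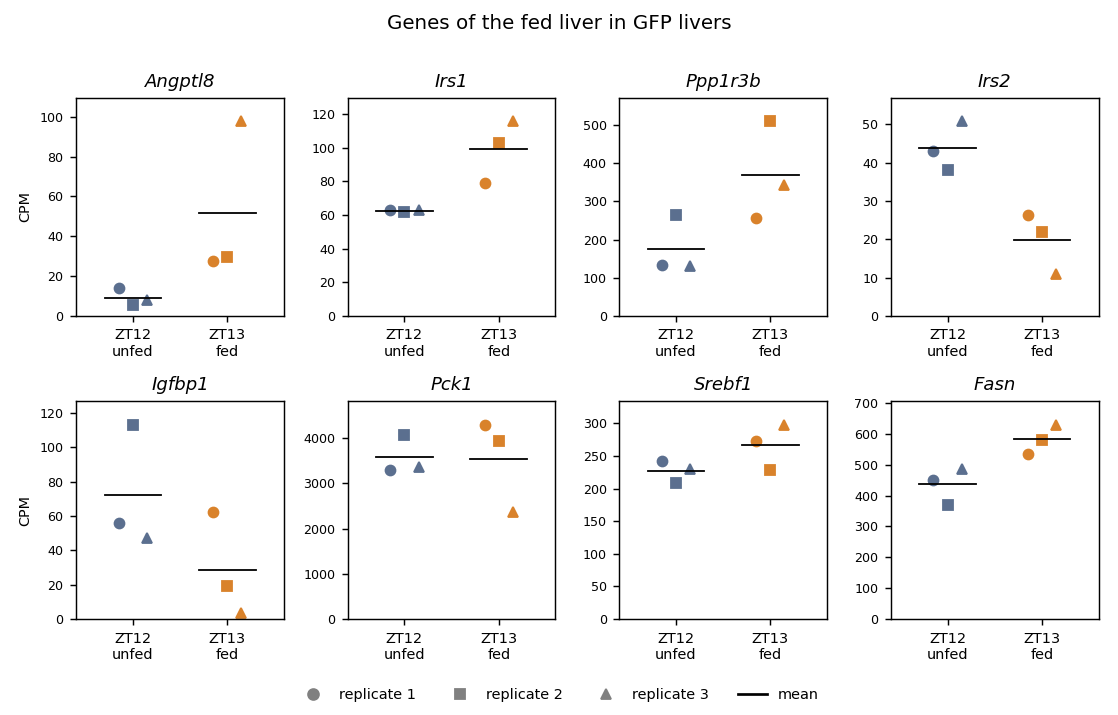
CPM in each GFP library at ZT12 unfed (blue) and ZT13 fed (orange) for 8 genes of insulin signalling and of glucose and lipid metabolism; symbols mark the replicate and lines the mean, and each axis starts at 0. Angptl8 and Irs1 are higher and Irs2 lower in every fed library, while Igfbp1 runs from 62.4 CPM in fed replicate 1 to 3.40 CPM in fed replicate 3.

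Igfbp1, a secreted binding protein that insulin switches off, was at 55.6, 113 and 47.3 CPM at ZT12 and at 62.4, 19.1 and 3.40 CPM at ZT13. Fed replicate 1 lies within the unfed range, and the gene did not pass (-1.33 ± 0.68, adjusted p = 0.32). Its change was -3.19 in CRE livers (adjusted p = 0.011), and the difference between the changes had an unadjusted p of 0.0841. Depp1, a FOXO target, was at 5.51, 26.1 and 11.1 CPM and then at 2.38, 7.41 and 1.44 CPM, with overlap (-1.89 ± 0.65, adjusted p = 0.112). The mRNA of Pck1, the phosphoenolpyruvate carboxykinase of glucose production, was at 3309, 4065 and 3372 CPM and then at 4305, 3938 and 2365 CPM (-0.02 ± 0.24, adjusted p = 0.982). G6pc, the glucose-6-phosphatase, was at -0.15 ± 0.36 (adjusted p = 0.887). Of 17 genes of glucose production none was called by edgeR or DESeq2, and 1 had an unadjusted p under 0.05. Srebf1, a transcription factor of lipid synthesis, was at 242, 208 and 231 CPM and then at 273, 229 and 298 CPM (0.23 ± 0.18, adjusted p = 0.575), with overlap. Fasn, the fatty acid synthase, was at 450, 371 and 487 CPM and then at 536, 581 and 631 CPM (0.42 ± 0.27, adjusted p = 0.471). All fed libraries lie above the unfed ones for Fasn, but its change is under 2 standard errors. Of 21 lipid synthesis genes edgeR called none, DESeq2 called 1 (Mid1ip1), and 4 had an unadjusted p under 0.05, all higher. Acaca, acetyl-CoA carboxylase, was at 0.47 ± 0.20 (adjusted p = 0.218).

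No textbook GR target passed between the 2 times. Of 22 members edgeR and DESeq2 called none, 3 had an unadjusted p under 0.05, all higher, and the list's median was 0.09. That median was 0.27 to 0.32 in the 3 fits on NR_046233 and ran from -0.02 (without replicate 1 of ZT13) to 0.32 (without replicate 2 of ZT12) when 1 library was left out. Fkbp5, a GR co-chaperone induced by glucocorticoids, was at 219, 556 and 362 CPM and then at 469, 733 and 356 CPM (0.46 ± 0.30, adjusted p = 0.465). Tsc22d3, another induced gene, was at 131, 300 and 168 CPM and then at 239, 499 and 237 CPM (0.70 ± 0.29, adjusted p = 0.209). Unfed replicate 2 was the highest of its group for both genes, and the groups overlap. Lpin1 was at -0.10 ± 0.23 (adjusted p = 0.874) and Zbtb16 at 0.60 ± 0.31 (adjusted p = 0.336). Of the 19 clock genes, Clock, an activator of the circadian loop, was at 53.4, 67.3 and 44.0 CPM and then at 69.5, 97.4 and 81.2 CPM (0.60 ± 0.13, adjusted p = 0.0137). Per2, a repressor of the same loop, was at 103, 94.9 and 83.7 CPM and then at 127, 139 and 158 CPM (0.59 ± 0.15, adjusted p = 0.0281). Neither gene's groups overlap. DESeq2 also called Bhlhe40 and Nr1d2, so that by DESeq2 3 clock genes rose and 1 fell. With the share of NR_046233 as covariate Clock stayed called, while Per2 did not. Clock lost its call without replicate 1 or 3 of ZT12 or replicate 2 of ZT13 (adjusted p up to 0.101), and Per2 without replicate 2 or 3 of either time (up to 0.117). Nr1d1, a repressor whose level falls toward night, was at 28.4, 24.6 and 30.8 CPM and then at 14.8, 19.1 and 32.7 CPM (-0.34 ± 0.27, adjusted p = 0.581).

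Over the other lists the counts were small. In all, 12 of 22 pathway lists held no called member by edgeR; of their 222 members tested, 40 had an unadjusted p under 0.05 and DESeq2 called 4. Of 22 ribosome biogenesis factors Nolc1 rose (0.63 ± 0.17, adjusted p = 0.0355) and 19 had positive changes. Among Kruppel-like factors Klf2 rose by 0.73 and Klf11 fell by 0.74 (adjusted p = 0.0365 and 0.0347). Fetub, a secreted liver protein, fell from 424, 486 and 329 CPM to 274, 252 and 325 CPM (-0.54 ± 0.11, adjusted p = 0.0075). The groups of Fetub do not overlap, but replicate 3 was at almost the same level at both times. With the share of NR_046233 as covariate Nolc1 stayed called, while Klf2, Klf11 and Fetub did not. Nolc1 kept its call only without replicate 3 of ZT13 (adjusted p up to 0.129), Klf2 and Klf11 only without replicate 2 of ZT12 or replicate 1 of ZT13 (up to 0.21 and 0.252), and Fetub lost it without replicate 2 of either time (up to 0.066). Of 17 acute phase genes none was called by edgeR, DESeq2 called Apcs, and 7 had an unadjusted p under 0.05, all lower. The list's median was -0.40, but 0.13 with replicate 3 alone on the unfed side, 0.12 without the 6 libraries rich in NR_046233, -0.11 with the covariate and -0.16 without replicate 2 of ZT12, so its direction rests on the libraries chosen. Of 20 growth brake and autophagy genes none was called by edgeR, DESeq2 called Ulk1, and 7 had an unadjusted p under 0.05, all lower (median -0.20). Of 70 markers of other liver and non-liver cell types and of hepatocytes, edgeR called none, 9 had an unadjusted p under 0.05 and DESeq2 called 3 (Cyp2e1, Kdr and Sox9). Kupffer cell markers summed to 194 to 342 CPM at ZT12 and 188 to 242 CPM at ZT13, and endothelial markers to 564 to 595 and 552 to 568 CPM. In bulk liver, fewer cells of a type and less RNA per cell cannot be told apart.

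**Figure D4:**
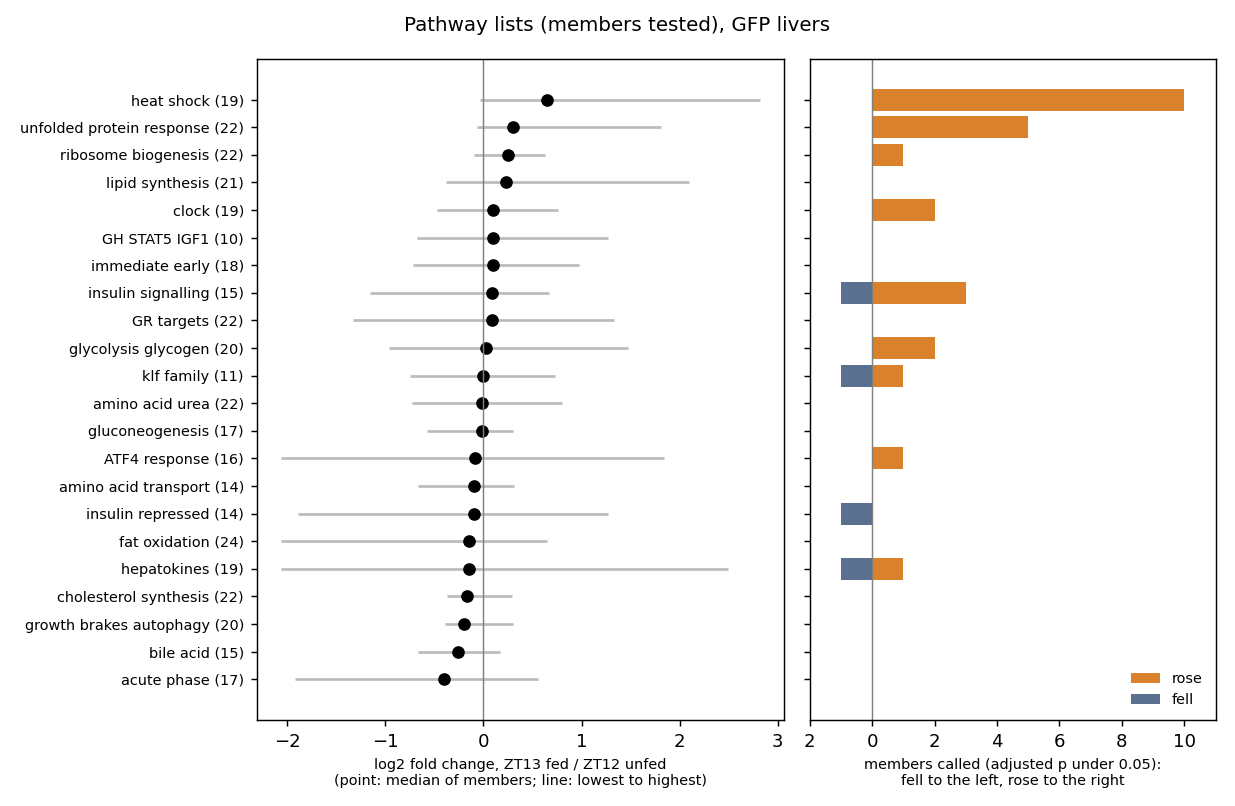
Left, the median (point) and the lowest to highest (line) log2 fold change of each pathway list, with the number of members tested in brackets; right, the number of members that rose (orange) or fell (blue) at an adjusted p under 0.05. Heat shock genes, with 10 called of 19 and a median of 0.65, stand at the top.

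Large falls were found in genes that were high in the 2 unfed libraries rich in NR_046233. Sspn, a membrane protein of muscle, was at 1429 and 1921 CPM in replicates 1 and 2 of ZT12, at 25.2 CPM in replicate 3 and at 18.7, 14.2 and 9.63 CPM at ZT13. Lars2, a mitochondrial leucyl-tRNA synthetase, was at 52190, 68360 and 1544 CPM and then at 1423, 731 and 606 CPM. Cdk8, a kinase of the Mediator complex, was at 59960, 66420 and 14150 CPM and then at 11970, 6048 and 4869 CPM. For these 3 genes replicate 3 of ZT12 lies near the fed livers and not near its own group. Of the 164 genes that fell, 17 were at least 2 times higher in both replicates 1 and 2 than in replicate 3 of ZT12, a pattern picked after the values were seen. They include Camk1d, Sspn, Cntnap5b, Lars2, Il31ra, D130009I18Rik, Mir6236, Gphn, Jarid2, Cdk8, Il1rapl1, Cmss1, Filip1l, Kcnip1, Slc13a5 and Arhgap21, where Cmss1 and Filip1l overlap and share nearly all their counts. Together these 17 summed to 29.0%, 34.2% and 2.87% of the scaled counts at ZT12 and to 3.06%, 1.33% and 1.07% at ZT13. These sums hold the counts shared by Cmss1 and Filip1l under both genes, so they overstate the share. Cmss1 alone was at 70700 and 81100 CPM in replicates 1 and 2 of ZT12, and Filip1l at 70700 and 81090 CPM. Over the whole table Lars2 was at 52190 CPM or more in the 6 libraries above 20% NR_046233 and at 42170 CPM or less in the other 30. In CRE livers, whose ZT12 libraries held 3.62% to 7.38% of that row, Lars2 was at -0.52 and Sspn at -0.59. With the share of NR_046233 as covariate, Sspn, Lars2, Cdk8, Cntnap5b, Mir6236 and Il1rapl1 were not called. D130009I18Rik, Gphn and Arhgap21 were not called in that fit either, and their log2 fold changes moved to 0.0444, 0.0577 and 0.103. The cause of these 17 falls was not tested. The other 147 genes that fell had a median log2 fold change of -0.61.

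Genes that rose most outside the chaperones included P4ha1, a collagen prolyl hydroxylase, at 43.5, 30.7 and 25.8 CPM and then at 83.1, 71.0 and 85.9 CPM (1.27 ± 0.23, adjusted p = 0.0021). Dapk2, a stress-related protein kinase, was at 10.6, 10.1 and 15.2 CPM and then at 15.6, 51.7 and 38.1 CPM (1.52 ± 0.32, adjusted p = 0.0086), and lost its call without replicate 2 of ZT13 (0.0642). Neat1, a nuclear non-coding RNA that builds paraspeckles, was at 362, 635 and 396 CPM and then at 1804, 2274 and 1845 CPM. The groups are far apart (2.09 ± 0.53, adjusted p = 0.0293), yet the call was lost without replicate 1 or 3 of ZT12 or replicate 2 or 3 of ZT13 (up to 0.121). Malat1, another nuclear non-coding RNA, rose by 0.52 ± 0.11 (adjusted p = 0.0107; 0.0615 without replicate 1 of ZT12), and 5 other nuclear or structural RNAs tested were not called. With the share of NR_046233 as covariate P4ha1 stayed called, while Dapk2, Neat1 and Malat1 did not. The gene with the smallest p, Rcan1, an inhibitor of the phosphatase calcineurin, was named after its value was seen. Rcan1 was at 32.9, 34.2 and 30.5 CPM and then at 60.3, 74.1 and 64.8 CPM (1.03 ± 0.12, adjusted p = 3.85e-05), and it stayed called without any 1 library and in the 3 fits on NR_046233.

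Genes that rose were longer than the rest. The median gene interval was 59.2 kb for the 300 genes that rose, 25 kb for the 164 that fell and 22.2 kb for genes not called. Among 10292 genes at 5 CPM or more on average, sorted by interval into 5 groups of equal size, the median log2 fold change ran from -0.08 in the group of the shortest (median 5.43 kb) to 0.08 in that of the longest (134 kb), with 23 and 116 genes that rose. It was -0.09 and 0.10 with replicate 3 alone on the unfed side, and -0.105 and 0.09 in CRE livers. In C57BL/6 livers, the same 2 groups were at 0.02 and -0.09 between fed and unfed at ZT13. Ribosomal protein genes were counted apart: of 77 tested, 9 fell and none rose, 75 had a negative change and the median was -0.27. They summed to 4158, 4427 and 4301 CPM at ZT12 and to 3644, 3644 and 3437 CPM at ZT13, with no overlap. Rpl17, a protein of the large subunit, was at 63.9, 65.6 and 59.5 CPM and then at 47.2, 51.7 and 43.8 CPM (-0.40 ± 0.07, adjusted p = 0.00308). The ribosomal protein genes were grouped after their values were seen. Leaving out 1 library gave 1 to 5 calls among them, and the 3 fits on NR_046233 gave none with edgeR, with medians of -0.27 to -0.28 and 76 or 77 negative changes. The 9 called include Rpl17, Rps15a, Rps14, Rps3a1, Rps7, Rps12, Rps4x and Rps27a. In CRE livers 7 of the 77 fell and none rose (median -0.21). Over all genes tested 1.04% fell in GFP livers and 3.61% in CRE livers. In C57BL/6 livers none of the 77 was called between fed and unfed at ZT13 (median -0.13). Nor was any called between ZT10 and ZT13 without food (median 0.10).

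The CRE livers, unfed at ZT12 and fed at ZT13 in the same table, share no library with the GFP comparison. There 907 genes rose (5.77%) and 567 fell (3.61%), 1474 in all (9.38%; unadjusted p under 0.05 for 24.0%). Of the 300 genes that rose in GFP livers, 229 also rose in CRE livers (76.3% of the GFP list and 25.2% of the CRE list), none fell, and 295 had the same sign. Of the 164 that fell, 81 fell in CRE livers (49.4%, and 14.3% of the CRE list), none rose, and 158 had the same sign. The test of the difference between the changes called 0 genes with edgeR, 634 had an unadjusted p under 0.05 (4.04%), and DESeq2 called 10. Of those 10, 6 (Camk1d, Cntnap5b, Il31ra, Jarid2, Lars2 and Sspn) belong to the 17 transcripts of the 2 libraries rich in NR_046233, and the other 4 were 5031425E22Rik, Fcho1, Gadd45b and Xirp1. Without replicate 3 of ZT12 in GFP livers edgeR called 5, all among the same 6 (Camk1d, Cntnap5b, Il31ra, Lars2 and Sspn). Pfkfb3, a kinase and phosphatase that sets the rate of glycolysis, was at 1.37 in CRE livers against 0.14 in GFP livers (unadjusted p of the difference 0.00076), which did not pass the adjustment. Nr3c1 was at 0.55 in CRE livers and at 0.12 in GFP livers (unadjusted p of the difference 0.0364).

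**Figure D5:**
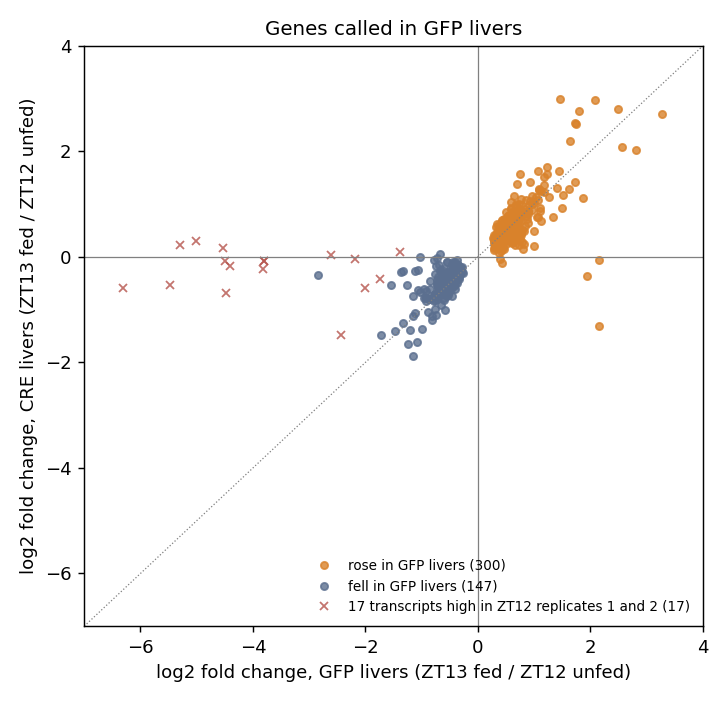
Log2 fold change from ZT12 unfed to ZT13 fed in GFP livers (x axis) and in CRE livers (y axis) for the 464 genes called in GFP livers; the dotted line marks equal change. Of the 300 genes that rose, 295 lie above 0 on the y axis, and the 17 transcripts high in 2 of the ZT12 libraries (crosses) lie between -1.49 and 0.31 on it.

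C57BL/6 mice, polyA libraries in a separately normalized table, were also fed or left unfed at ZT13, so that food and hour stand apart there. Food at ZT13 raised 69 genes (0.468% of 14744) and lowered 93 (0.631%; 162 in all, 1.1%; unadjusted p under 0.05 for 12.9%), and the hours from ZT10 to ZT13 without food raised 1436 (9.74%) and lowered 1345 (9.12%; 2781 in all, 18.9%; unadjusted 31.4%). Both comparisons share the unfed ZT13 livers. Of 298 genes that rose in GFP livers and were tested there, 18 rose with food (6.04%, and 26.1% of the food list), none fell, and 251 had the same sign. With the hours alone 106 of the 298 rose (35.6%, and 7.40% of that list) and 11 fell. Of 163 that fell, 15 fell with food (9.20%) and 39 with the hours (23.9%). Of 19 heat shock genes, 4 rose with food (Bag3, Dnaja1, Hsp90aa1 and Hsph1) and 14 with the hours, these 4 among them. Hspa1b did not pass with food (1.54, adjusted p = 0.0501) and rose with the hours; it was at 2.92 ± 0.01 CPM at ZT10, 19.3 ± 12.5 CPM unfed at ZT13 and 55.9 ± 21.5 CPM fed at ZT13 (SD, n = 3). Of 22 unfolded protein response genes, 10 rose with the hours (median 0.34). With food edgeR called none of them, DESeq2 called 3 (Hspa5, Manf and Sdf2l1) and 9 had an unadjusted p under 0.05, all higher (median 0.30). Angptl8 was at 2.60 with food and at -0.55 with the hours, called with food only, while Ppp1r3b was at 0.37 with food and 2.49 with the hours, called with the hours only. Srebf1 was at 1.35 with food and -1.64 with the hours, both called. The textbook GR targets fell in 3 of 22 cases with food, and 17 of 22 rose with the hours.

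Later in the night the GFP livers held some of these levels and not others. At the 4 times from ZT13 over ZT14 and ZT18 to ZT22, Rcan1 was at 66.4 ± 7.06, 107 ± 7.59, 54.4 ± 2.79 and 40.5 ± 1.63 CPM (SD, n = 3). Hspa1b was at 18.5 ± 12.5, 30.2 ± 6.81, 6.55 ± 4.70 and 3.00 ± 0.45 CPM at the same times, so that its ZT22 mean was again near the 3.02 ± 0.59 CPM of ZT12. Angptl8 was at 51.7 ± 39.9, 69.6 ± 45.2, 95.8 ± 6.93 and 67.1 ± 9.58 CPM. Irs2 was at 19.7 ± 7.98, 18.4 ± 6.35, 30.0 ± 4.48 and 37.7 ± 8.93 CPM, against 43.9 ± 6.44 CPM at ZT12. These later levels were not tested here.

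GR peaks of unfed C57BL/6 liver at ZT10 were set beside the genes called. The labels give 1 such GR library, and which replicates the authors' replicate-concordant list of 5772 peaks was drawn from is not stated in the labels. That list had a peak within 25 kb of 128 of 300 genes that rose (42.7%, exact 95% interval 37.0 to 48.5), of 62 of 164 that fell (37.8%, 30.4 to 45.7) and of 4310 of 15248 not called (28.3%, 27.6 to 29.0). The 95% intervals treat genes as independent, although neighbours can share a peak, as Creld2 and Alg12 do. No test compared the shares. The gene intervals of the genes that rose were the longest of the 3 sets, as given above, and the part of length in these shares was not tested. Rcan1 has a peak centred 1.90 kb from its start site, within the gene (mm10, chr16:92398076-92398284). The nearest such peak to Bag3 lies 491 kb away and the nearest to Hspa1b 16.6 kb away. Of the 5 called genes whose promoter window overlaps a peak, Mapk14, Gcnt2 and Phf20 rose and Kng2 and Gm8883 fell, with log2 fold changes from -0.85 (Gm8883) to 0.77 (Gcnt2); they were named after their values were seen.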

How the data were processed

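Liver RNA depleted of ribosomal RNA was sequenced from Nr3c1fl/fl mice. The deposited values are whole-number counts per RefSeq transcript row, which the authors left unnormalized; STAR, HOMER, DESeq2 and the build mm10 are named in the submitters' processing notes, without versions, and no source used here states the strand setting of the counting or the thresholds of the peak caller. The peak lists hold chromosome, start and end as deposited. Of 40458 rows, 40219 were matched to 24790 genes through the RefSeq table of GRCm38.p6, and the row with the highest total was kept where a gene had several (7581 genes). Row NR_046233 was left out. Of counts from 1 to 10, 80.8% were even, so that counting error may be larger than the counts show. Genes were tested with edgeR 4.0.16 (R 4.3.3; quasi-likelihood, TMM, filterByExpr) over all 36 libraries in 12 groups, giving log2 fold changes, standard errors and p-values adjusted by Benjamini-Hochberg over 15712 genes. C57BL/6 libraries were fitted apart. In simulated counts of this comparison, 92% of 100 genes changed by 1 on the log2 scale were recovered, and 99% of 100 changed by 2. Of the unchanged genes 7 were called. Each gene had 1 mean and 1 spread over all simulated libraries, and the changed genes were at 5 CPM or more. No simulated library was like replicates 1 and 2 of ZT12, so these figures do not cover the effect of such libraries. Alternatives were DESeq2 1.42.0, RLE factors, no filter, the 6 or 12 libraries of the groups compared alone, a replicate block, 3 fits on the share of NR_046233, and leaving out each library. Named genes were key genes, up to 3 members of each list with the smallest p, and up to 12 genes up and 12 down with the largest change among those called, at 5 CPM on average and without overlap; others are marked. Members and lists were chosen with earlier results of these data known.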

Additional observations from a re-analysis of the deposited data

How the results depend on the processing

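From ZT12 to ZT13 in GFP livers, 464 genes were called; DESeq2 called 749, the 6 libraries alone gave 0 with edgeR (2104 at an unadjusted p under 0.05), the NR_046233 covariate 118, replicate 3 alone on the unfed side 21, and the libraries over 20% left out 27. Leaving out 1 library in turn gave 149 (without replicate 3 of ZT12) to 477 (without replicate 1 of ZT13). RLE factors gave 445, no filter 404 and the replicate block 446. Same-numbered GFP libraries of ZT12 and ZT13 correlated at 0.0289, 0.1575 and 0.1723. Replicates 2 and 3 of ZT12 were nearest to their own number, but replicate 1 was nearest to replicate 3 of ZT13. The numbers were therefore not taken to pair these 2 groups. CRE libraries of the same number correlated at 0.2466, 0.1968 and 0.0169 between ZT12 and ZT13. GFP with CRE libraries of ZT12 correlated at 0.1024, 0.1616 and 0.1845. In both comparisons each was best with its own number, a hint from the data and not from the design. GFP with CRE libraries of ZT13 correlated at 0.1259, -0.1932 and -0.2630. There GFP replicate 2 was best with CRE replicate 3, and GFP replicate 3 with CRE replicate 2, so the hint did not hold at ZT13. With the block Syvn1 lost its call and no other named gene did. In the covariate fit D130009I18Rik moved to 0.0444, Gphn to 0.0577 and Arhgap21 to 0.103; the cause was not tested. The difference between GFP and CRE gave 10 genes with DESeq2 and 0 to 5 without 1 library, the 5 without replicate 3 of GFP ZT12. The CRE change gave 512 (without replicate 2 of CRE ZT12) to 1271 genes. C57BL/6 food gave 352 with DESeq2 and 40 (without fed replicate 2) to 434 (without unfed replicate 1), and the hours 1802 (without replicate 2 of ZT10) to 2601. The shares of genes with a GR peak were, for genes that rose, fell and were not called, 29.0%, 22% and 13.1% for overlap with the gene, 62.0%, 61.6% and 52.7% within 100 kb, 77.7%, 72.0% and 61.6% for peaks against input, and 87.3%, 70.7% and 70.0% for peaks against CRE chromatin. How depth bears on the calls was not tested; Hspa1a, below 0.5 CPM unfed, rests on few counts.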

Other observations

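Some genes outside the lists fell; they were picked after their values were seen and form no tested group. Tcp11l2 was at 42.5, 50.4 and 41.5 CPM at ZT12 and at 22.9, 21.9 and 13.6 CPM at ZT13 (-1.20 ± 0.21, adjusted p = 0.00183). Crebrf, a regulator of CREB3 proteins, was at 85.5, 99.9 and 98.1 CPM and then at 59.0, 56.2 and 45.2 CPM (-0.82 ± 0.17, adjusted p = 0.00997). Fbxo32, a ubiquitin ligase subunit of muscle atrophy, was at 7.78, 9.51 and 9.52 CPM and then at 4.53, 3.14 and 3.60 CPM (-1.25 ± 0.28, adjusted p = 0.0126). The groups of these 3 genes do not overlap. In C57BL/6 livers all 3 fell with food at ZT13, by 1.39, 1.53 and 1.56 on the log2 scale, and Fbxo32 also fell with the hours without food (-0.87). Tcp11l2 stayed called without any 1 library, Crebrf lost its call without replicate 3 of ZT13 (adjusted p = 0.0598) and Fbxo32 without replicate 3 of ZT12 or replicate 2 of ZT13 (up to 0.0633). Crebrf and Fbxo32 were not called in any of the 3 fits on NR_046233, and Tcp11l2 was called in the covariate fit but not in the other 2.

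Acot12, a hydrolase of acetyl-CoA, was at 292, 291 and 278 CPM and then at 173, 205 and 144 CPM (-0.72 ± 0.12, adjusted p = 0.00123), and stayed called without any 1 library and in the covariate fit, but not with replicate 3 alone on the unfed side or without the libraries rich in NR_046233. Other genes that fell were the kininogens Kng1 and Kng2 by 0.40 and 0.55, coagulation factor F5 by 0.31, protein S (Pros1) by 0.61, the C1 inhibitor Serping1 by 0.46, and the asialoglycoprotein receptor subunits Asgr1 and Asgr2 by 0.40 and 0.39. F5, Asgr1 and Asgr2 kept their calls in 1 of the 6 fits without 1 library, Kng1, Pros1 and Serping1 in 2, and Kng2 in 4; none of these 7 was called by edgeR in the 3 fits on NR_046233, and F5 and Kng1 were not called without the filter. Among genes that rose, the transcriptional repressor Etv6 was at 179, 174 and 157 CPM and then at 282, 303 and 341 CPM (0.86 ± 0.14, adjusted p = 0.00123), with the same 2 lost calls as Acot12, and the potassium channel gene Kcnq1 at 84.3, 94.9 and 87.8 CPM and then at 136, 155 and 137 CPM (0.68 ± 0.09, adjusted p = 0.00023). Kcnq1 overlaps the antisense RNA Kcnq1ot1, which rose by 0.70, and their reads cannot be told apart. All of these genes were picked after their values were seen.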
